A study of Arabidopsis thaliana with 12 samples.

Results

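The genes described here are 43 Arabidopsis thaliana genes whose spots read lower in the tpt1 mutant than in the wild type (WT), relative to the rest of the array. They were taken from the 692 of 3439 spots that are annotated to exactly 1 gene, of which 478 had a value above 0 in all 12 samples. The genes were chosen by these measured values: the quantile-normalized log2 intensity of a gene had to be lower in tpt1 than in WT in each of the 6 pairs of samples with the same number, with a mean difference at or below -0.4. The rule was met by 53 spots of 1 gene, and 10 of these, which encode among others photosynthetic, tetrapyrrole and plastid ribosomal proteins, were left out by name. The difference between tpt1 and WT therefore chose the 43 genes, so their differences are a description and carry no p-value. Over all 2383 spots with 12 values, annotated or not, 13.1% met the same 2 conditions. In the opposite direction, 92 of the 478 spots of 1 gene were higher in tpt1 in 6 of 6 pairs by at least 0.4.

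Both groups are of ecotype Wassilevskija. The WT group holds 6 samples of total RNA, and the tpt1 group holds 6 samples of the mutant, in which the transport activity for triose phosphate across the chloroplast envelope is below 5% according to the labels. Samples are numbered 1 to 6 within each group, and the labels do not give the tissue, the age or growth of the plants, or whether each sample is a plant of its own. Any p-value behind the counts given for the whole array then measures the spread between these samples, which may be technical. The tissue was not settled by the lists of marker genes either. In the list of 34 genes of leaf photosynthesis, 1 had a spot of its own and 0 had enough values for a test. The 8 root, 5 flower and 10 seed markers listed had 0 spots of their own. The array did measure other photosynthesis genes on spots of their own, such as PSAN, PSBY, PSBW, PRK and the antenna gene LHB1B2. These were not used to judge the tissue, which was not tested.

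The triose phosphate/phosphate translocator carries the product of photosynthetic carbon fixation out of the chloroplast, in exchange for phosphate, so that sucrose can be made in the cytosol. When this route is blocked, plants are known to turn over starch more and to export its breakdown products as sugars. The 43 genes do not form a pathway. A role is given for 34 of them, and they are ordered by it. First come processing of RNA and expression of organelle genes, folding and turnover of proteins, and respiration with isocitrate oxidation. Small-molecule metabolism, lipids, DNA repair, and transport and signalling follow. The roles are textbook annotations of Arabidopsis genes, not results.

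The depth of the data is set by the signal of each spot. The deposited intensities ran up to a ceiling of 100, and the values of the 43 genes ran from 0.0464 to 12.2, so no gene was at the ceiling. The summed intensity of a sample lay between 2725 and 3547. The median log2 intensity of a sample ran from -2.38 to -1.72 in WT and from -1.42 to -0.88 in tpt1, without overlap. A gene that kept its deposited intensity is thus lower in tpt1 relative to the array, and each difference in the following paragraphs is a difference after quantile normalization unless the deposited scale is named.

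The median difference of the 43 genes was -0.65 on the log2 scale, against 0.12 over all 478 spots of 1 gene with 12 values. The genes ranged from -1.31 (AT5G19050, 2.48-fold lower) to -0.42 (AT1G69910, 1.33-fold lower), and the median fold was 1.57. Just inside the limit lay AT2G21720 at -0.44, AT2G28660 at -0.43 and AT1G69910 at -0.42. Just outside it lay AT1G33250 at -0.39, AT2G35390 at -0.37 and AT1G13990 at -0.37. The choice of limit thus divided genes that differ by a few hundredths, and AT2G44530 (-0.45) and AT2G35390, which both encode ribose-phosphate diphosphokinases, fell on opposite sides of it.

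**Figure D1:**
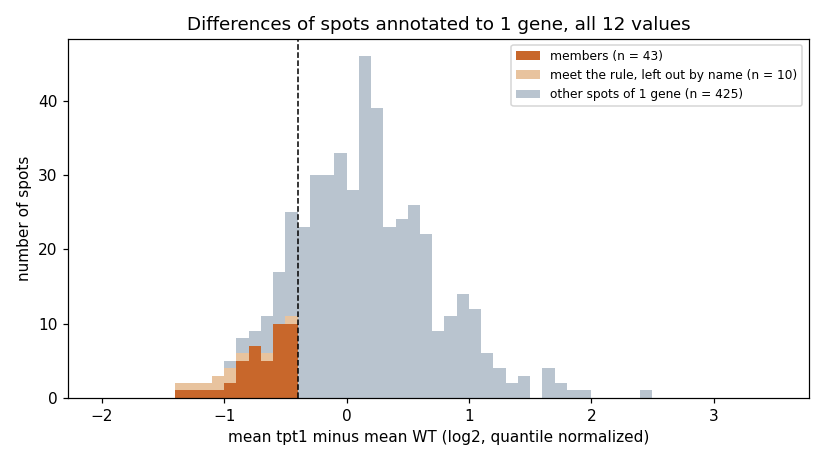
Histogram of the mean tpt1 minus mean WT log2 difference (x axis, quantile normalized, bins of 0.1) for the 478 spots of 1 gene with 12 values; the y axis counts spots, colours mark the 43 genes, the 10 genes left out by name and all other spots, and the dashed line is the limit of -0.4. The chosen genes fill the left tail from -1.31 to -0.42, but not all of it, since spots lower in fewer than 6 pairs were not chosen.

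The WT and tpt1 samples did not overlap in 9 of the 43 genes, that is, every tpt1 sample lay below every WT sample. Among all 2383 spots with 12 values, 4.53% were separated in this direction. These 9 were AT3G14890, AT1G51350, AT5G14590, AT5G47890, PRA1.B3, AT5G53920, AT4G13550, AT3G25410 and AT3G26580. In the other 34 genes the ranges of the groups overlapped, although each tpt1 sample was below the WT sample of its own number. In limma's unpaired test across all 2849 tested spots, 15 of the 43 genes passed an adjusted p of 0.05 as lower, beside 6.39% of all tested spots as lower and 12.8% in either direction. With the sample number as a block 40 of the 43 passed, beside 14.3% of all tested spots. The 364 spots that passed without the block were 182 higher and 182 lower in tpt1, against 133 and 356 with each array centred on its median and 1323 and 73 on the deposited scale. Nothing is read from these counts, because the same contrast chose the genes. Without tpt1 5 the unpaired count was 9, the lowest over the fits that left out 1 sample.

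**Figure D2:**
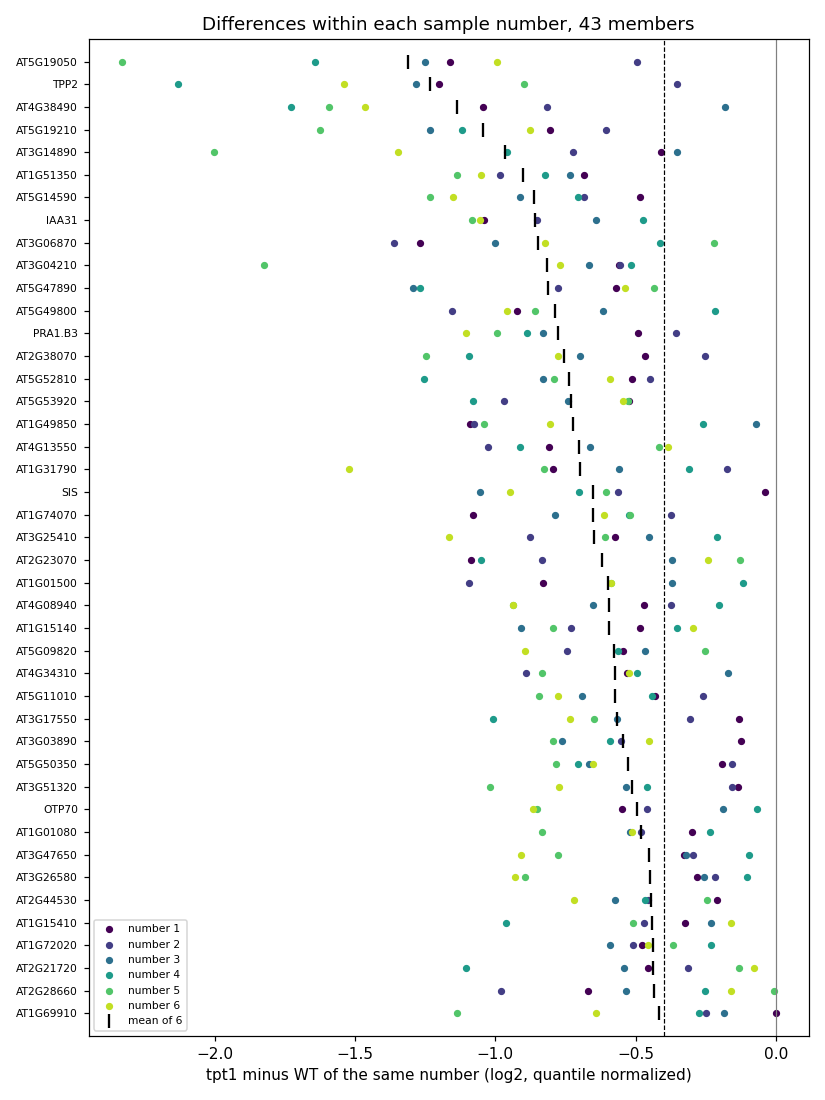
Difference between the tpt1 and the WT sample of the same number (x axis, log2, quantile normalized) for each of the 43 genes (y axis, ordered by mean); coloured points are the 6 numbers, black ticks the mean and the dashed line the limit of -0.4. All points lie below 0 because the rule required it, and the spread within a gene is widest for genes such as TPP2, whose pairs run from -2.13 to -0.35, and narrow for AT1G51350, whose pairs run from -1.13 to -0.68.

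Genes for the processing of RNA and the expression of organelle genes made up 7 of the 43, with a median difference of -0.57. AT5G19210, which encodes a DEAD-box RNA helicase, an enzyme class that remodels RNA structure, had the lowest value of them. The WT samples ran from -0.12 to 1.29 with a median of 1.14, and its tpt1 samples from -1.21 to 0.55 with a median of -0.01. The mean went from 0.85 ± 0.57 in WT to -0.20 ± 0.75 in tpt1 (SD, n = 6 and 6), a difference of -1.04. WT 5 and WT 6 lay inside the range of tpt1, and tpt1 5 and tpt1 6 were the lowest samples, so the values differed by number as well as by genotype. The gene was also lower on the deposited scale, by a difference of -0.64 and in 6 of 6 pairs.

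OTP70 is a pentatricopeptide repeat protein, a class of RNA-binding proteins that act on the transcripts of chloroplasts and mitochondria. Values in WT ran from -1.06 to 0.19 (median -0.74) and its tpt1 samples from -1.52 to -0.67 (median -1.0). The means were -0.53 ± 0.54 and -1.03 ± 0.31 (n = 6 and 6), a difference of -0.50. The groups overlapped: WT 5 and WT 6 stood highest, at 0.08 and 0.19, and WT 1 (-0.65) lay just above the highest tpt1 sample. WT 2, WT 3 and WT 4 lay within the range of tpt1. The pentatricopeptide genes AT1G31790 and AT3G51320 had differences of -0.70 and -0.51. In AT3G51320 the difference was -0.15 over numbers 1 and 2 and -0.90 over numbers 5 and 6. In AT1G31790 it was -0.48 and -1.17 over the same numbers. In OTP70 it was -0.50 over numbers 1 and 2, -0.13 over numbers 3 and 4 and -0.86 over numbers 5 and 6, so all 3 of these genes were furthest below WT in numbers 5 and 6.

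AT1G01080, which encodes an RNA-binding protein with RNA recognition motifs, had a difference of -0.48 with overlapping groups (0.08 ± 0.29 in WT and -0.40 ± 0.37 in tpt1, n = 6 and 6). AT5G53920, annotated as a methyltransferase of ribosomal protein L11, was among the 9 separated genes. Its WT samples lay between -0.78 and 0.04 and its tpt1 samples between -1.36 and -0.93. AT5G11010, of the family of polynucleotide kinases that act on RNA ends, behaved differently from it. Its WT samples 1 to 4 lay between 1.58 and 1.69, but WT 5 was at 0.28 and WT 6 at -0.15. Its tpt1 samples 1 to 4 lay between 0.91 and 1.43, with tpt1 5 at -0.57 and tpt1 6 at -0.93. The range of AT5G11010 over the means of the numbers was 2.1, 3.66 times its difference of -0.57 between genotypes. Without tpt1 6, but with WT 6 kept, that difference was -0.29.

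Genes for the folding and turnover of proteins made up 6 of the 43, with a median difference of -0.69. TPP2 encodes tripeptidyl peptidase II, a large protease that removes tripeptides from the ends of peptides released by the proteasome. In WT the samples ran from -4.24 to -1.42 (median -2.29) and its tpt1 samples from -4.59 to -2.76 (median -3.99). The means were -2.51 ± 1.02 and -3.74 ± 0.72 (n = 6 and 6), a difference of -1.23. This was one of the noisiest genes: WT 2 lay below 5 of the 6 tpt1 samples, and tpt1 2 was the only tpt1 sample below all WT samples. On the deposited scale 3 of 6 pairs of TPP2 were lower in tpt1, with a mean difference of -0.23.

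AT1G51350 encodes a protein with armadillo repeats, a fold that binds other proteins. Its WT samples ran from 0.01 to 0.92 (median 0.09) and its tpt1 samples from -0.94 to -0.13 (median -0.64). The difference was -0.90 (0.35 ± 0.45 in WT and -0.56 ± 0.32 in tpt1, n = 6 and 6). The groups were separate, and numbers 5 and 6 were the highest in both groups. AT1G51350 was also lower in 6 of 6 pairs on the deposited scale (-0.36).

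AT1G49850, a RING-finger protein of the class that includes ubiquitin ligases, had a difference of -0.72, with WT samples from 0.27 to 1.11 and tpt1 samples from -0.19 to 0.28. Its groups met at the edge, where tpt1 3 lay just above WT 4, and the difference was -0.17 over numbers 3 and 4 against -1.08 over numbers 1 and 2. AT1G74070, a cyclophilin-type prolyl isomerase that assists protein folding, differed by -0.65 with wide groups (SD 0.69 in WT and 0.65 in tpt1). AT3G47650, a protein with a DnaJ-type zinc finger, a domain of chaperones, differed by -0.45. In it tpt1 samples 1 to 4 lay between 0.30 and 0.42, while tpt1 5 and tpt1 6 were at -1.03 and -0.69. Without tpt1 5, but with WT 5 kept, its difference was -0.26. AT3G26580, a tetratricopeptide repeat protein, had the same mean difference of -0.45, but its groups were separate, with WT from 0.66 to 1.11 and tpt1 from 0.12 to 0.59. Equal mean differences thus stood for unequal patterns among samples.

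Respiration and the oxidation of isocitrate were represented by 2 genes, and the groups were separate in both. AT5G14590 encodes an NADP-dependent isocitrate dehydrogenase, which oxidizes isocitrate to 2-oxoglutarate. Values in WT ran from -0.21 to 0.18 (median 0.09) and its tpt1 samples from -1.10 to -0.53 (median -0.76). The means were 0.06 ± 0.14 and -0.81 ± 0.23 (n = 6 and 6), a difference of -0.86, several times the spread within either group. On the deposited scale it was lower by a difference of -0.25, in 5 of 6 pairs.

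AT5G47890 encodes the B8 subunit of complex I, the NADH dehydrogenase of the respiratory chain. In WT the samples ran from -1.21 to -0.29 (median -0.95), and its tpt1 samples from -1.73 to -1.48 (median -1.60). The difference was -0.81 (-0.78 ± 0.37 in WT and -1.60 ± 0.09 in tpt1). The tpt1 samples were the tighter group, and WT 3 and WT 4 stood above the other 4 WT samples, so that the difference was -1.28 over numbers 3 and 4 and -0.49 over numbers 5 and 6. On the deposited scale the mean difference of AT5G47890 was -0.01, with 2 of 6 pairs lower.

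**Figure D3:**
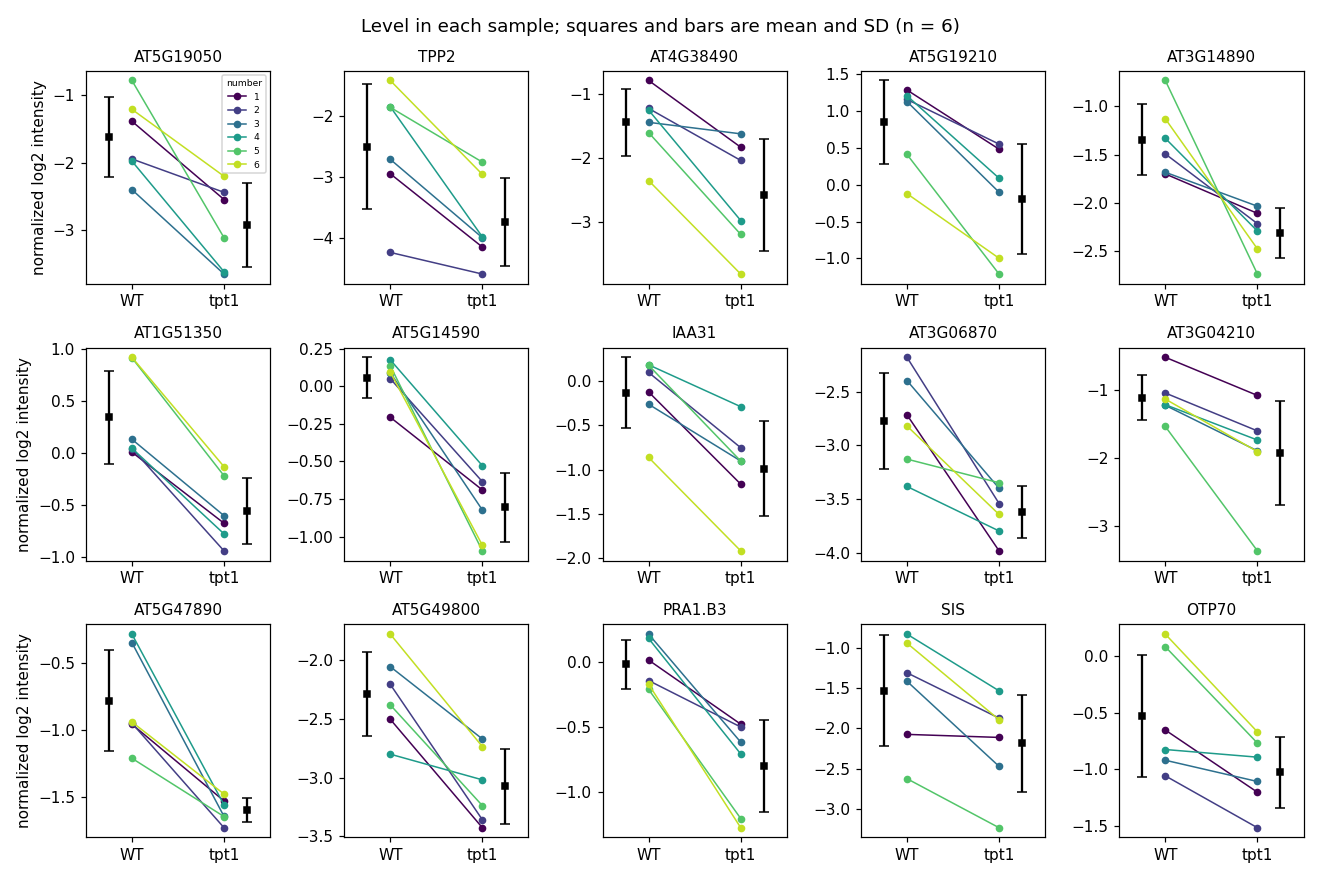
Quantile-normalized log2 intensity (y axis, own scale in each panel) of 15 genes in WT and tpt1, namely the 12 with the lowest differences and the 3 further genes with a symbol of their own; lines join samples of the same number, and squares with bars are the mean and SD of 6 samples. In AT3G14890, AT1G51350, AT5G14590, AT5G47890 and PRA1.B3 the groups do not overlap, and in the other 10 they do.

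Small-molecule metabolism was represented by 5 genes, whose median difference was -0.55 and whose groups overlapped in each case. AT5G52810 encodes a reductase of the ornithine cyclodeaminase family, which acts in the synthesis of pipecolic acid, a signal of systemic immunity. It differed by -0.74 (-0.23 ± 0.31 in WT and -0.97 ± 0.45 in tpt1, n = 6 and 6). In WT 5 it was at -0.84, against -0.25 to 0.00 in the other WT samples. AT1G15140, an oxidoreductase that binds FAD, had the tightest WT group of the 43, with an SD of 0.12, and differed by -0.59. Only tpt1 6, at -1.07, overlapped with WT, where WT 5 was lowest at -1.10. AT3G03890, an FMN-binding protein, differed by -0.55, AT2G44530, which makes the nucleotide precursor phosphoribosyl diphosphate, by -0.45, and AT1G15410, of the aspartate and glutamate racemase family, by -0.44. AT2G44530 was higher in tpt1 in 6 of 6 pairs on the deposited scale, with a mean difference of 0.44. So its place among the 43 genes is relative to the array.

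Lipids and hydrolases made up 5 genes, with a median difference of -0.70. AT5G19050, of the alpha/beta-hydrolase superfamily, had the lowest difference of all 43 genes. The WT samples ran from -2.40 to -0.78 (median -1.66), and its tpt1 samples from -3.65 to -2.20 (median -2.83). The means were -1.61 ± 0.59 and -2.93 ± 0.62 (n = 6 and 6), a difference of -1.31. A single pair of samples made the groups overlap, WT 3 and tpt1 6, and the pairs ran from -2.33 in number 5 to -0.49 in number 2. As deposited, AT5G19050 was lower in 5 of 6 pairs, with a difference of -0.41.

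AT5G49800, of the START-like family of lipid-binding proteins, had WT samples from -2.80 to -1.78 (median -2.29) and tpt1 samples from -3.43 to -2.67 (median -3.13). It differed by -0.79 (-2.29 ± 0.36 and -3.07 ± 0.32, n = 6 and 6), and WT 4 lay among the tpt1 samples. AT4G13550, a predicted lipase, differed by -0.70 with separate groups, with WT from -0.71 to -0.33 and tpt1 from -1.74 to -0.81. AT4G34310, also an alpha/beta-hydrolase, differed by -0.57, and AT5G09820, a fibrillin of the lipid-binding proteins of plastids, by -0.58. Both of these had wide groups, with SDs of 0.67 and 0.58 in WT. Without WT 5, but with tpt1 5 kept, the difference of AT4G34310 was -0.37.

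AT3G14890 was the only gene of DNA repair. It encodes a DNA 3'-phosphatase with zinc fingers, which restores the ends of single-strand breaks and acts in the removal of methylated cytosine. Its WT samples ran from -1.70 to -0.73 (median -1.41), and its tpt1 samples from -2.74 to -2.03 (median -2.25). The difference was -0.96 (-1.35 ± 0.37 in WT and -2.31 ± 0.26 in tpt1, n = 6 and 6), and the groups were separate. Numbers 5 and 6 were the highest in WT and the lowest in tpt1, which made its pairs the most uneven of the separated genes, from -0.35 in number 3 to -2.0 in number 5. Of 23 genes listed for DNA repair and organelle DNA, AT3G14890 alone had a spot of its own, so its group cannot be described. The lists of plastid protein import (14 genes), plastid proteases and chaperonins (20 genes) and plastid isoprenoids and carotenoids (18 genes) had 0 genes tested.

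Transport and signalling held 8 genes, with a median difference of -0.70. IAA31 is one of the Aux/IAA proteins, a family of repressors of the transcription of auxin-response genes. In WT the samples ran from -0.86 to 0.19 (median -0.01), and its tpt1 samples from -1.92 to -0.29 (median -0.90). The means were -0.13 ± 0.40 and -0.99 ± 0.54 (n = 6 and 6), a difference of -0.86. WT 6 and tpt1 6 were each the lowest of their group, and without them the other samples of IAA31 did not overlap. IAA31 was also lower in 6 of 6 pairs as deposited, with a difference of -0.20.

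PRA1.B3 (prenylated RAB acceptor 1.B3) belongs to a family of membrane proteins of vesicle traffic. The WT samples ran from -0.21 to 0.22 (median -0.06), and its tpt1 samples from -1.27 to -0.48 (median -0.66). It differed by -0.78 (-0.02 ± 0.18 and -0.80 ± 0.35, n = 6 and 6) with separate groups. The 4 tpt1 samples numbered 1 to 4 lay between -0.71 and -0.48, and tpt1 5 and tpt1 6 lay lower, at -1.20 and -1.27. AT3G25410, of the bile acid:sodium symporter family, whose plant members carry organic acids into plastids, also had separate groups. Values in WT ran from -1.56 to -1.17 and its tpt1 samples from -2.57 to -1.76, a difference of -0.65, yet on the deposited scale the mean of AT3G25410 was higher in tpt1 (0.23).

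AT3G04210 encodes a protein of the TIR-NBS class, relatives of immune receptors. Its WT samples ran from -1.53 to -0.52 (median -1.17), and its tpt1 samples from -3.36 to -1.08 (median -1.81). The difference was -0.82 (-1.11 ± 0.33 and -1.93 ± 0.76, n = 6 and 6). The lowest sample, tpt1 5, carried much of it, and without that sample, but with WT 5 kept, the difference was -0.53. SIS (Salt Induced Serine rich) had WT samples from -2.62 to -0.83 (median -1.36) and tpt1 samples from -3.23 to -1.54 (median -2.0). It differed by -0.65 (-1.53 ± 0.69 and -2.19 ± 0.60, n = 6 and 6). WT 1 and WT 5 of SIS lay among the tpt1 samples, and the pair of number 1 differed by -0.04.

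AT2G23070 encodes the chloroplast catalytic subunit of casein kinase CK2, a protein kinase, and differed by -0.62. Its difference was -0.96 over numbers 1 and 2 and -0.19 over numbers 5 and 6, the reverse of the order seen in AT3G51320 and PRA1.B3. AT2G38070, of the family of OCTOPUS, a membrane protein of the phloem lineage, differed by -0.76, with WT samples from -0.80 to -0.28 and tpt1 samples from -1.68 to -0.56. AT1G69910, a protein kinase gene, differed by -0.42, the smallest difference of the 43. Its tpt1 samples 1 to 4 lay between -0.14 and -0.06, within the range of WT, and tpt1 5 and tpt1 6 were at -1.44 and -0.83. Without tpt1 5, but with WT 5 kept, the difference of AT1G69910 was -0.22.

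For 9 genes no role is given. AT4G38490 had the lowest difference of them. The WT samples ran from -2.36 to -0.79 (median -1.35) and its tpt1 samples from -3.82 to -1.62 (median -2.51), with means of -1.45 ± 0.52 and -2.58 ± 0.88 (n = 6 and 6), a difference of -1.14. WT 6 alone of the WT samples lay inside the range of tpt1, though tpt1 3 at -1.62 was close to WT 5 at -1.60. AT3G06870 had WT samples from -3.38 to -2.18 (median -2.77) and tpt1 samples from -3.98 to -3.35 (median -3.59), a difference of -0.85 (SDs 0.45 and 0.24). Only WT 4 overlapped with tpt1. On the deposited scale its mean was higher in tpt1 (0.17), with 3 of 6 pairs lower.

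AT5G50350 had a mean deposited intensity of 8.88 in WT and 5.84 in tpt1. Its normalized values were 2.93 ± 0.55 and 2.40 ± 0.76 (n = 6 and 6), a difference of -0.53, and WT 5 and WT 6 lay below the first 4 tpt1 samples. The deposited values gave a difference of -0.64, in 6 of 6 pairs. The remaining 6 genes differed by -0.60 (AT1G01500 and AT4G08940), -0.57 (AT3G17550) and -0.44 to -0.43 (AT1G72020, AT2G21720 and AT2G28660). AT3G17550 had the widest range over sample numbers of all 43 genes, 2.24 between the highest and the lowest mean of a number. Number 3 was its lowest, at -1.62 in WT and -2.19 in tpt1. Without tpt1 3, but with WT 3 kept, the difference of AT3G17550 was -0.32. AT2G28660 was higher in tpt1 in 6 of 6 pairs on the deposited scale, with a mean difference of 0.50, the highest of the 43 genes there. Without tpt1 1, but with WT 1 kept, its normalized difference was -0.26.

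Many of the 43 genes had a range over sample numbers wider than their difference between genotypes. A range over 6 averages and a difference of 2 means are unlike measures, so this does not rank number against genotype. For each gene, the WT and tpt1 values of the same number were averaged, and the range over the 6 averages exceeded the difference between genotypes in 30 of the 43 genes. The median range was 1.0 on the log2 scale, close to the 1.04 over the 478 spots of 1 gene. The largest ranges were those of AT3G17550 (2.24), TPP2 (2.22) and AT5G11010 (2.1), and the smallest were those of AT3G26580 (0.12), AT3G14890 (0.17) and AT5G14590 (0.31). What a number stands for is not given in the labels, so the source of this variation was not tested.

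The 43 genes did not all vary in the same direction over samples. After subtraction of the group means, the correlation between 2 of the genes over the 12 samples had a median of 0.03 over 903 pairs of genes, with quartiles of -0.41 and 0.45. Over pairs of all 478 spots of 1 gene the median was 0.00, with quartiles of -0.38 and 0.38. These correlations are descriptions, since all genes share the same arrays and their normalization. By the means over both genotypes, 14 genes were lowest in numbers 1 and 2, 6 in numbers 3 and 4, and 23 in numbers 5 and 6, among the last AT5G11010, AT5G50350 and AT5G19210. Over the 478 spots of 1 gene these counts were 164, 106 and 208. The genes highest in each set were 16, 11 and 16 in the same order, with TPP2, AT2G44530 and AT4G34310 highest in numbers 5 and 6. The spots of 1 gene highest in each set were 167, 117 and 194.

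**Figure D4:**
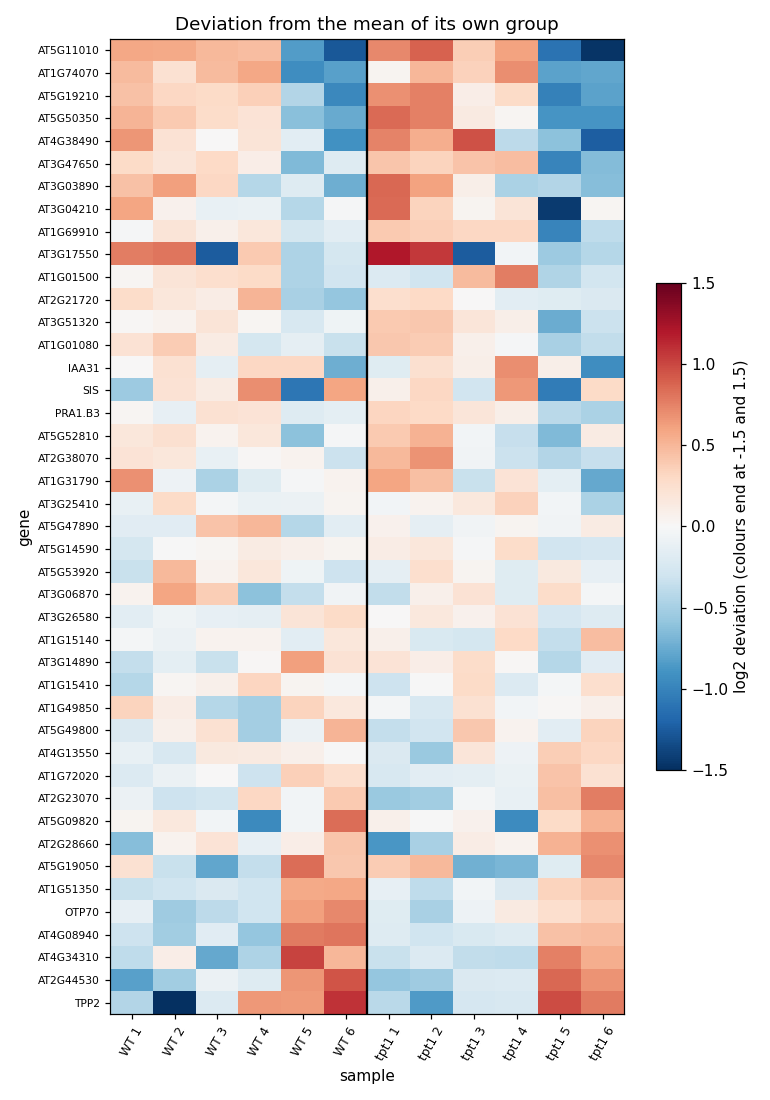
Deviation of each sample (x axis) from the mean of its own group, in log2 units (colour scale from -1.5 to 1.5), for the 43 genes (y axis), ordered by their mean deviation in samples 5 and 6. In 38 of the 43 genes (88.4%) the WT and tpt1 deviations correlate above 0 over the numbers, as they do in 425 of the 478 spots of 1 gene (88.9%), and the genes run from those low in numbers 5 and 6, such as AT5G11010, to those high there, such as TPP2.

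The difference between genotypes was not of one size over the numbers either. Its median over the 43 genes was -0.56 in numbers 1 and 2, -0.63 in numbers 3 and 4 and -0.81 in numbers 5 and 6, and 21 of the 43 genes were furthest below WT in numbers 5 and 6. Over the 478 spots of 1 gene the medians were 0.13, 0.12 and 0.07, and 180 spots had their lowest difference in numbers 5 and 6. Whether the 43 genes depart from the other spots in this was not tested, as the rule used these differences.

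Scaling decided the sign of the difference for most of the genes. On the deposited scale, 18 of the 43 genes had a mean difference below 0 and 25 had one above 0, and the median was 0.06. Over all 2383 spots with 12 values the median was 0.86, and 12% had a mean below 0. The genes lower in 6 of 6 pairs on the deposited scale were 5, AT5G19210, AT1G51350, IAA31, AT5G11010 and AT5G50350, beside 4.83% of all such spots. In 0 of the 43 genes were the groups separate on that scale, beside 1.89% of all spots. Differences on the deposited scale ran from -0.64 (AT5G50350 and AT5G19210) to 0.50 (AT2G28660). Of the 9 genes with separate groups after quantile normalization, AT5G53920 (0.01), AT4G13550 (0.06) and AT3G25410 (0.23) were above 0 on the deposited scale.

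The deposited difference of spots declined with brightness, with medians of 1.08, 1.01, 0.83 and 0.42 in 4 classes of mean intensity from the dimmest to the brightest. The 43 genes were spread over these classes, with 6, 11, 12 and 14 genes in that order. Each of the 43 lay below the median of its own class, by 0.27 to 1.49 on the log2 scale, although 25 of them lay above 0. With cyclic loess, which fits each pair of arrays along intensity, all 43 genes were below 0 and lower in 6 of 6 pairs, from -1.39 to -0.39, where 17.8% of all spots were lower in 6 of 6 pairs. With each array centred on its median all 43 were below 0 and 40 were lower in 6 of 6 pairs. Because the rule chose genes low after normalization on these same arrays, these counts were largely fixed by the choice and are a description. The position relative to the other spots is what these scales have in common. Whether the amount of each transcript per plant or per cell was lower was not tested, and in bulk RNA fewer cells of a type and less RNA per cell cannot be told apart.

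**Figure D5:**
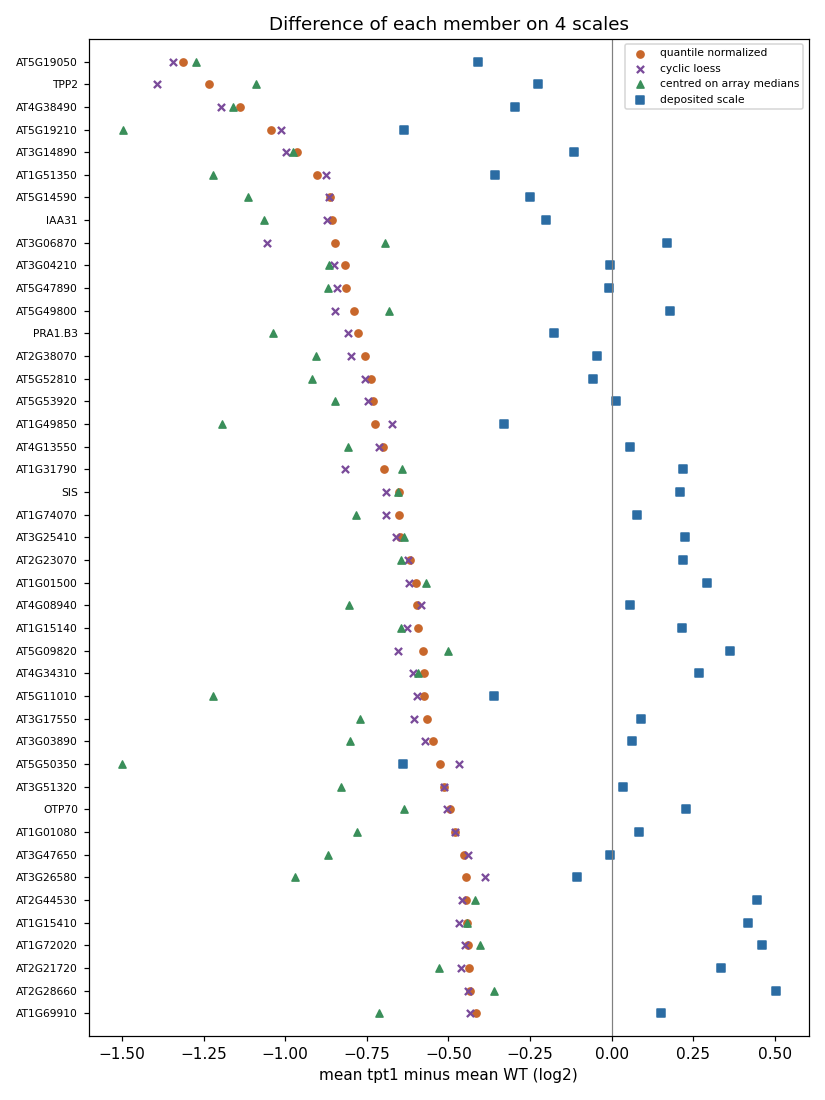
Mean tpt1 minus mean WT log2 difference (x axis) of the 43 genes (y axis) on 4 scales: quantile normalized, cyclic loess, arrays centred on their medians, and as deposited. The first 3 scales place all genes below 0, while the deposited values of 25 genes lie above 0.

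For 8 of the 43 genes, the array held a further spot annotated to the gene together with others of its family, whose signal cannot be assigned to 1 gene. The spot shared by AT5G09820 and 3 other genes had a difference of -0.92, lower than that of the spot of AT5G09820 itself (-0.58). The spot shared by AT5G19210 and 2 others had a difference of -0.64 (n = 5 WT and 6 tpt1). The spots shared with AT1G01080 (0.10), PRA1.B3 (0.24), SIS (0.19) and AT2G38070 (0.82) were higher in tpt1, and the one shared with IAA31 was near 0 (-0.08). The spot shared with AT3G03890 had 3 WT values and 1 tpt1 value above 0 and is not described. Of the 8 family spots, 4 were thus higher in tpt1, against the direction of the spot of the single gene.

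The 43 genes lie on all chromosomes, with 10, 5, 10, 6 and 12 genes on chromosomes 1 to 5. Of the 478 spots of 1 gene, 113, 90, 91, 94 and 88 belong to these chromosomes in the same order. The closest neighbours were AT3G17550 and IAA31, with 4 protein-coding genes between them in the reference annotation. They did not share their pattern over samples: number 3 was the lowest for AT3G17550, while number 6 was the lowest for IAA31. The next closest, AT5G19050 and AT5G19210, had 18 genes between them.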

How the data were processed

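Total RNA of 12 samples, 6 of WT and 6 of tpt1, was measured on an expression array, and groups and numbers were taken from the sample titles. The authors deposited spot intensities on a linear scale from 0 to 100. The steps by which the authors read, background-corrected and scaled the spots are not given in the labels or the file, and scale, centring and the meaning of a 0 therefore stay unknown. Precision is limited by the number of arrays.

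Values of 0 became missing, and the rest were converted to log2 and quantile normalized. The test across spots with at least 4 values above 0 in each group was limma (version 3.58.1 in R 4.3.3, trend in the prior variance, two-sided, Benjamini-Hochberg adjustment over all tested spots, threshold 0.05). It was tried on simulated data with independent noise in each sample, unlike the real samples, where those of the same number were correlated. Python 3.11.15 with matplotlib 3.10.9 drew the figures. Names come from the annotation of the platform, updated through a reference table (assembly TAIR10.1) in which all 43 loci matched. No sequence is shown.

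The genes, the 8 lists of loci and the rule for naming genes were chosen with earlier results of these data known. Every gene is named, and values by sample are given for the 12 lowest differences and for genes with a symbol of their own. Roles were grouped after the values had been seen. Numbers pair the samples by the rule used (every pair above 0.1): after subtraction of the group means, same-numbered samples correlated across spots at 0.467 to 0.609, and 12 of 12 correlated best with their own number. Alternatives were other scalings, filters and prior variances, a pseudocount of 0.01, the number as a block, averaged neighbouring numbers, other limits, and leaving out samples.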

Additional observations from a re-analysis of the deposited data

Results flagged for a closer look

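Each gene had its 6 WT and its 6 tpt1 values checked for a sample lying far from the rest, judged by the gap to its nearest neighbour as a share of the range. This singled out 4 of 86 sets of values, and chance alone would give 4.3. The isocitrate dehydrogenase gene AT5G14590 read -0.21 (WT 1), below the other WT values of 0.05 to 0.18. The TIR-NBS gene AT3G04210 read -3.36 (tpt1 5), while its remaining tpt1 values were -1.90 to -1.08. The gene AT5G52810, for the reductase of pipecolic acid synthesis, read -0.84 (WT 5), with -0.25 to 0.00 in the remaining WT samples. The plastid fibrillin gene AT5G09820 read -3.82 (tpt1 4), with -2.89 to -2.35 elsewhere in tpt1. The same number was also lowest in the other group for AT5G09820 (WT 4, -3.26), AT5G52810 (tpt1 5, -1.63) and AT3G04210 (WT 5, -1.53). For AT5G14590 it was not, as tpt1 5 was its lowest tpt1 sample. All values are normalized log2 intensities.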

How the results depend on the processing

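The median difference of the 43 genes was below 0 under every alternative but the deposited scale, where it was 0.0561. On that scale 1396 spots passed in the unpaired test in place of 364 (1323 of them higher), 5 genes met the rule in place of 43 (2 of them, AT5G19210 and AT5G50350, among the 43) and 0 of the 43 had separate groups in place of 9. By limma 0 of the 43 passed there as lower in place of 15, also 0 at an unadjusted p under 0.05, and 1 passed as higher. Of the 15, AT5G53920 (0.0132), AT4G13550 (0.0551), AT3G25410 (0.225) and AT1G15140 (0.215) turned above 0 there, as the median of all spots was 0.86. With arrays centred on their medians 81 genes met the rule and 15 of the 43 had separate groups (10.5% of all spots), and with a pseudocount 66 and 14 (5.92%); the cause was not tested. Requiring separate groups left 9 genes by construction.

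With the replicate block (sample number) 906 spots passed, 363 of them among the 364. With neighbouring numbers averaged to 3 values a group, 0 spots passed in limma without a block, where 383 had an unadjusted p under 0.05, and 351 passed with the set of neighbours as a block. Leaving out 1 sample gave 272 to 338 spots, 9 to 13 genes with separate groups (4.87% to 5.41% of all spots) and a median difference of -0.70 to -0.61. For the rule, both samples of a number were left out, which gave 46 to 50 genes. The rule then asked for 1 pair fewer, so it was easier to meet. Leaving out numbers 1 and 2, 3 and 4, or 5 and 6, chosen after seeing the data, gave 17, 16 and 26 genes with separate groups (8.35%, 8.48% and 12.4% of all spots), with fewer samples to separate. The 8 genes whose difference moved by over 1.5 times without 1 sample were AT1G69910, AT2G28660, AT3G04210, AT3G17550, AT3G47650, AT4G34310, AT5G11010 and, without WT 6, AT2G44530 (-0.25). For these differences the same-numbered sample of the other group was kept. Such a shift therefore also takes in the variation over numbers, and does not show that a gene rests on 1 sample. None of these 8 passed in the unpaired test, but nothing is read from this, because the same contrast chose the genes.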
